A study of Arabidopsis thaliana with 6 samples.

Results

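The genes that build phenylalanine, tyrosine and tryptophan were followed in Arabidopsis thaliana plants that expressed the grapevine MYB factor VvMYBPAR. They were taken from a fixed list of 33 loci, sorted into the shikimate pathway (10 loci), chorismate mutases (3), arogenate dehydratases (6), an aminotransferase (1), a tyrosine branch (2) and a tryptophan branch (11). All 33 were on the array, with 49 of its 37118 features, out of 32627 loci in all.

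Plants use the shikimate pathway in the plastid to turn phosphoenolpyruvate and erythrose 4-phosphate into chorismate, the common precursor of the aromatic amino acids. Chorismate mutase commits chorismate to phenylalanine and tyrosine, and anthranilate synthase commits it to tryptophan. Phenylalanine feeds phenylpropanoids, and through them flavonoids and proanthocyanidins (condensed tannins), while tryptophan feeds auxin, indole glucosinolates and camalexin.

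Total RNA came from whole plants 3 weeks old, of the Columbia ecotype, grown on agar with 30 mg/l kanamycin and 16 h of light per day at 22 °C. One group held 3 lines transformed with 35S::VvMYBPAR, in which a viral promoter, 35S, expresses the transgene in most tissues: PAR18-2, PAR9-2 and PAR36-4, called MYBPAR replicates 1, 2 and 3. The control group held 3 lines transformed with an empty vector: Cont1-1, Cont2-3 and Cont5-1, called empty vector replicates 1, 2 and 3. Each line gave 1 sample on 1 single-colour array, so the spread within a group, which the p-values measure, mixes line, culture and array, which cannot be told apart.

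The arrays report RMA intensities, used here on the log2 scale, where a difference of 1 is a 2-fold change. Median intensities lay between 859 and 887 on the 6 arrays, and pairs of arrays had Pearson's r of 0.984 to 0.993 across features. BAN, the anthocyanidin reductase gene of proanthocyanidin synthesis, lay between 10.43 and 11.69 in the MYBPAR lines and between 4.67 and 4.76 in the empty vector lines. The mean of 4 leaf markers lay between 14.76 and 14.89 on all 6 arrays, and that of 5 root markers between 10.39 and 10.70. All 7 floral organ markers had differences above 0, with a median of 0.73, and their mean was 9.48 to 10.34 in the MYBPAR lines and 8.55 to 10.02 in the empty vector lines. The mean of the morning clock genes CCA1, LHY and PRR9 was 7.42 in MYBPAR replicate 2 and 11.00 to 12.86 on the other arrays. The evening clock genes TOC1, ELF4, LUX and GRP7 varied among the controls too. Their median relative to the control mean was 1.21, 0.27 and -1.26 in empty vector replicates 1, 2 and 3. It was -0.032, 1.07 and 0.33 in MYBPAR replicates 1, 2 and 3. BAN and the floral and clock genes were chosen with earlier results known, and their part in the results that follow was not tested except by leaving out samples. In RNA from whole plants, fewer cells of a type and less RNA per cell cannot be told apart.

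None of the 33 synthesis genes passed the test across all features in either direction. With limma and Benjamini-Hochberg adjustment at a threshold of 0.05, 0 of 33 were higher and 0 were lower, where 0.00539% of all features were called higher and 0% lower. The smallest adjusted p among them was 0.915. At an unadjusted p under 0.05, 1 of the 33 was higher and 0 were lower, against 2.38% and 2.01% of all loci. The fit with trend and robust settings also called 0 of 33. The linear model with no moderation across features called 0 of all features, BAN included, so its 0 of 33 adds nothing. With 3 lines per group, 0.1 is the smallest p that an exact permutation test allows, so none is given.

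The intervals limited how large an undetected change could be. The log2 differences, MYBPAR minus empty vector, ran from -0.28 to 0.33, and the 95% interval of every one of the 33 lay within 1 log2 unit of 0, so that a 2-fold change lay outside each interval. The intervals of 22 of the 33 (66.7%) lay within 0.5 of 0. Such intervals were found for 44.0% of all loci, and for 69.7% of loci with mean levels in the range of the 33. Intervals within 1 log2 unit were found for 84.9% of all loci, and for 93.8% of the 13552 loci whose mean level lay in the range of the 33. The intervals are not adjusted for the number of genes.

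More of the differences were above 0 than below it, at small size. Of the 33, 27 (81.8%) had a difference above 0, beside 53.3% of all loci, and the median difference was 0.077 beside 0.015 for all loci. Among loci with mean levels in the same range, 57.4% were above 0 with a median of 0.023. Without MYBPAR replicate 2, whose morning clock genes were low, 26 of 33 were above 0, and without empty vector replicate 1, the array with the lowest floral markers, 26 were. Leaving out empty vector replicate 3 gave 25, the lowest count, and a median of 0.12.

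Sample by sample, the median of the 33 genes relative to the control mean was 0.070, 0.14 and 0.083 in MYBPAR replicates 1, 2 and 3 and -0.057, 0.015 and 0.024 in empty vector replicates 1, 2 and 3. These medians did not overlap between the groups, and as a score over chosen genes they were not tested. Medians of all loci with mean levels in the same range did not overlap either. They were 0.014, 0.031 and 0.037 in MYBPAR replicates 1, 2 and 3 and at most 0.0026 in the empty vector samples. Over all loci the medians overlapped. Above the mean of the empty vector samples lay 23, 22 and 22 of the 33 genes in MYBPAR replicates 1, 2 and 3, and 7, 21 and 19 in empty vector replicates 1, 2 and 3. Empty vector replicate 1 held the lowest of the 6 values for 15 of the 33 genes, beside 17.1% of all loci. MYBPAR replicate 2 held the highest for 11. Shares over all loci were not computed for the highest values or for the counts above the control mean. The control mean includes empty vector replicate 1.

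**Figure D1:**
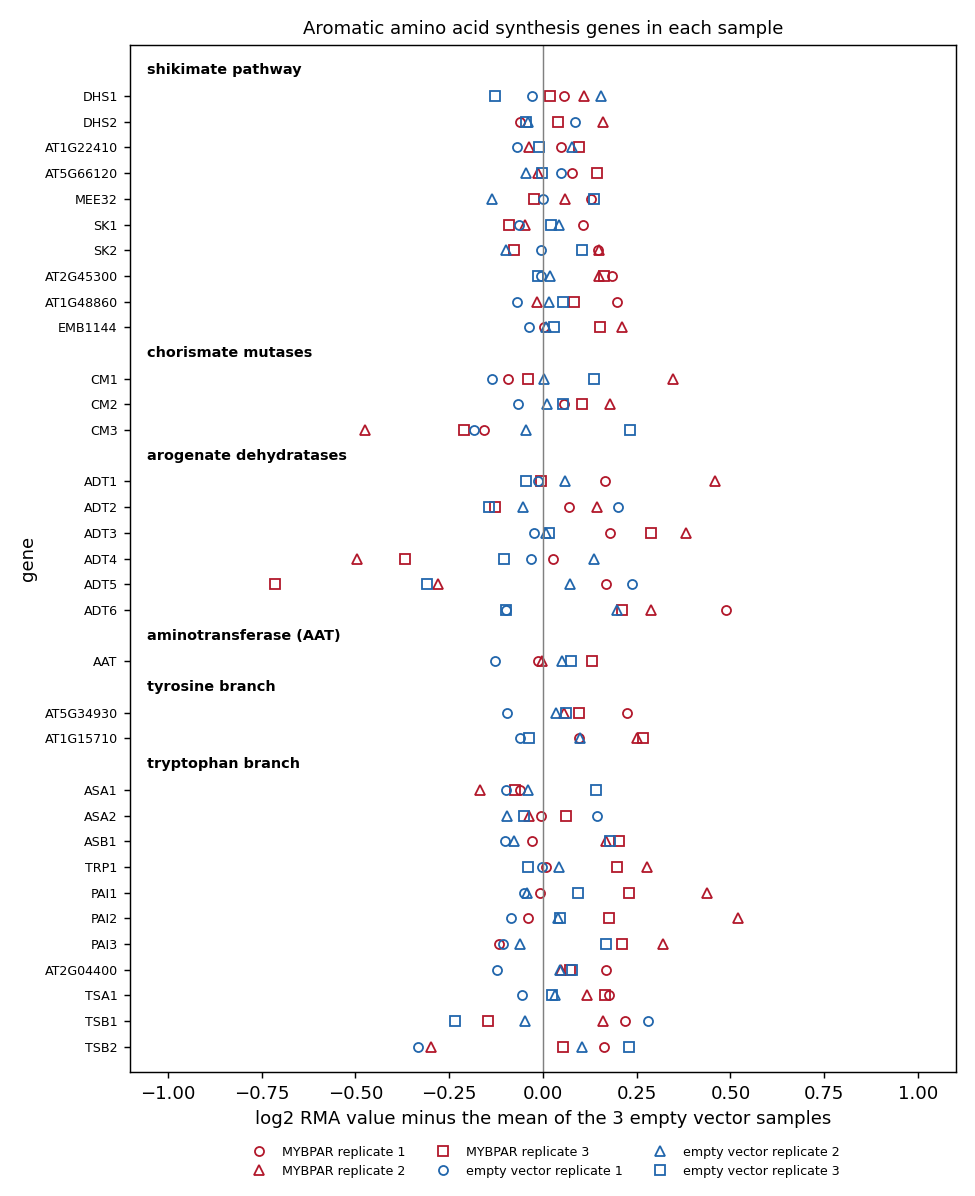
Log2 RMA value of each of the 33 genes in each sample, minus the mean of the 3 empty vector samples of that gene (x axis, log2 units), by branch. Red points are MYBPAR and blue points empty vector samples, and circles, triangles and squares are replicates 1, 2 and 3. The colours intermix for most genes, and ADT5 has the most spread MYBPAR points.

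In 5 of the 33 genes all MYBPAR values lay above all empty vector values, and in 0 all lay below. Among all loci 6.36% had groups that did not overlap with MYBPAR higher and 3.72% with MYBPAR lower. The 5 genes were AT2G45300 of the shikimate pathway, the chorismate mutase gene CM2, the arogenate dehydratase genes ADT3 and ADT6, and the tryptophan synthase gene TSA1. They are described with their branches.

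The shikimate pathway was nearly level between the groups. Its 10 genes had differences between -0.0098 and 0.17 with a median of 0.066, and 9 were above 0. The highest upper bound of an interval was 0.39 and the lowest bound -0.26, so all 10 intervals lay within 0.5 of 0.

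DHS1 and DHS2, which encode DAHP synthases of the entry step, had nearly equal group means. DHS1, whose transcript is known to respond to wounding and pathogens, had 14.02, 14.07 and 13.98 in MYBPAR replicates 1 to 3 and 13.93, 14.12 and 13.83 in empty vector replicates 1 to 3. The highest and the lowest DHS1 value were both control values. Its difference was 0.062 (SE 0.11), and that of DHS2 0.047 (SE 0.11). A second, dimmer feature of DHS2, with a mean of 7.98 in MYBPAR and 7.76 in empty vector, had 0.22 (SE 0.23).

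The middle steps also had close group means. MEE32, the enzyme that both dehydrates dehydroquinate and reduces the product to shikimate, had 0.054 (SE 0.12). The shikimate kinase genes SK1 and SK2, which phosphorylate shikimate, had -0.0098 (SE 0.11) and 0.073 (SE 0.12). The 5 features of SK1 lay between -0.055 and 0.097, and 2 of them were above 0.

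AT2G45300 had the smallest p of the pathway and very little spread. Its values were 13.05, 13.02 and 13.03 in MYBPAR replicates 1 to 3 and 12.86, 12.88 and 12.85 in empty vector replicates 1 to 3. The groups did not overlap, and the SD was 0.017 in the MYBPAR lines and 0.016 in the empty vector lines. The difference was 0.17 (SE 0.09, 95% interval -0.053 to 0.39; limma, adjusted p = 0.915), a fold of 1.12. Limma draws such small variances toward those of other features, which sets the width of this interval.

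The remaining genes of the pathway had differences above 0. EMB1144, the chorismate synthase gene, had a difference of 0.12 (SE 0.10). The loci AT1G22410, AT5G66120 and AT1G48860, which the gene table does not name, had 0.036 (SE 0.10), 0.070 (SE 0.10) and 0.088 (SE 0.11). EMB1144, AT5G66120 and AT1G48860 each have a second feature, at 0.097, 0.20 and 0.23. The groups did not overlap for the second features of EMB1144 and AT1G48860, with MYBPAR higher. SK2 also has a second feature, at 0.27 (SE 0.19). It and the second feature of AT1G48860 lay below 7.12, the minimum between the low and the high mode of the array's values. Signal there may be background.

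The chorismate mutases, which form prephenate, went both ways within their errors. In plants CM1 and CM3 are plastid enzymes regulated by aromatic amino acids, and CM2 is a cytosolic form that is not. CM3 had the smallest p of the 3. Its values were 11.19, 10.88 and 11.14 in MYBPAR replicates 1 to 3 and 11.16, 11.30 and 11.58 in empty vector replicates 1 to 3. The groups overlapped through MYBPAR replicate 1, and MYBPAR replicate 2 was the lowest sample. The difference was -0.28 (SE 0.15, 95% interval -0.65 to 0.092; limma, adjusted p = 0.915).

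CM2 had 10.98, 11.10 and 11.03 in MYBPAR replicates 1 to 3 and 10.86, 10.93 and 10.98 in empty vector replicates 1 to 3. The groups did not overlap, but the lowest MYBPAR value and the highest control value nearly touched. The difference was 0.11 (SE 0.10; limma, adjusted p = 0.915). CM1 had 0.071 (SE 0.16), with its highest value, 12.48, in MYBPAR replicate 2, and -0.066 without that sample.

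**Figure D2:**
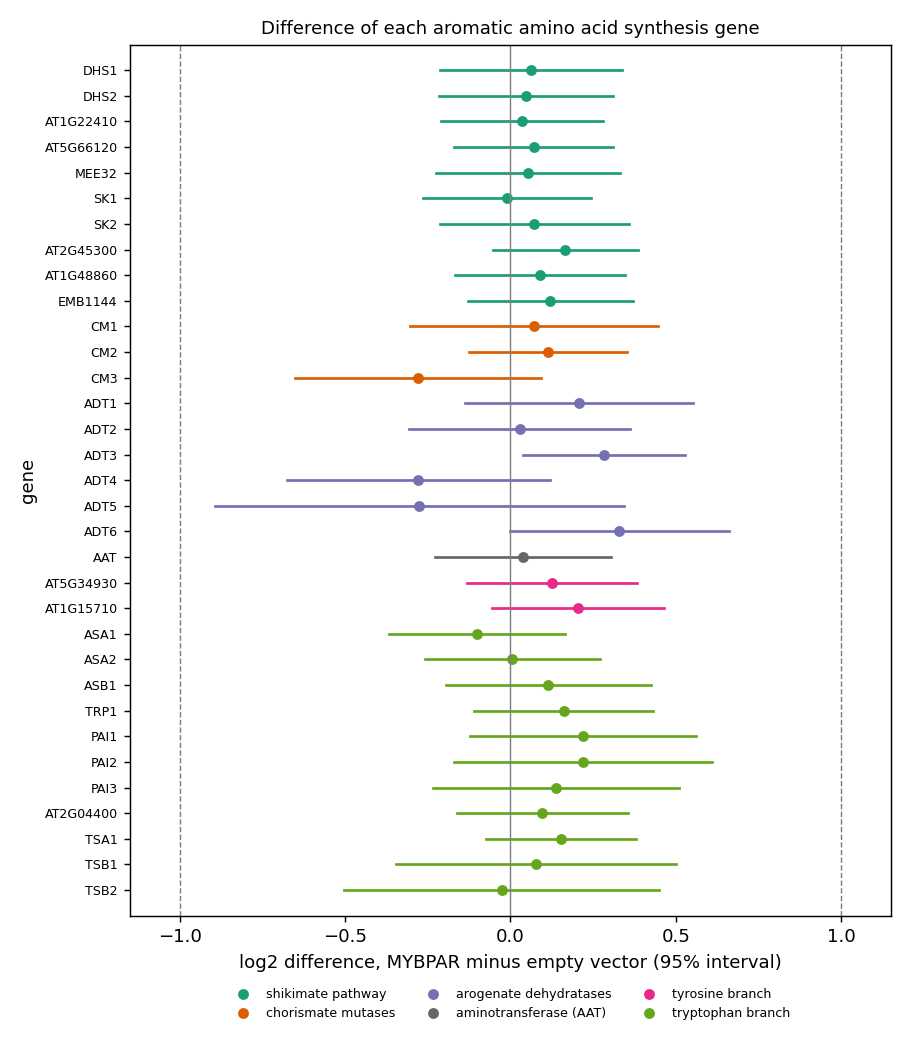
Log2 difference, MYBPAR minus empty vector, with its unadjusted 95% limma interval, for each of the 33 genes, coloured by branch. Dashed lines mark a 2-fold change in either direction. Every interval lies between the dashed lines, and only that of ADT3 does not reach 0.

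The arogenate dehydratases, which make phenylalanine from arogenate, differed most among themselves. Of the 6 genes, ADT1, ADT2, ADT3 and ADT6 had differences above 0 and ADT4 and ADT5 below 0, with a range from -0.28 to 0.33. The interval of 1 of the 6, ADT2, lay within 0.5 of 0. Whether the 6 genes differ from one another was not tested.

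ADT3 was the 1 gene of the 33 with an unadjusted p under 0.05. Its values were 12.08, 12.28 and 12.19 in MYBPAR replicates 1 to 3 and 11.87, 11.90 and 11.91 in empty vector replicates 1 to 3. The groups did not overlap, and the controls lay closer together than the MYBPAR lines. The difference was 0.28 (SE 0.10, 95% interval 0.037 to 0.53; limma, unadjusted p = 0.0304, adjusted p = 0.915), a fold of 1.22. Over the fits that left out 1 sample its difference was 0.23 to 0.33, with adjusted p-values from 0.534 to 1.00. Its unadjusted p was 0.0279 without MYBPAR replicate 1 and 0.0568 to 0.0823 in the other 5 of these limma fits. The count of the 33 genes at an unadjusted p under 0.05 was 3 without MYBPAR replicate 1, 1 without empty vector replicate 2 and 0 in the other 4. Of all loci, 8.34%, 4.73% and 2.43% to 4.53% had such a p in these fits. The 3 genes were ADT3, PAI1 and ADT4, of which ADT4 was lower in MYBPAR, and the 1 gene was ADT6.

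ADT6 had the largest difference of the 33. Its values were 11.10, 10.90 and 10.82 in MYBPAR replicates 1 to 3 and 10.51, 10.81 and 10.51 in empty vector replicates 1 to 3. MYBPAR replicate 3 and empty vector replicate 2 stood almost level, and the groups did not overlap. The difference was 0.33 (SE 0.14, 95% interval -0.0011 to 0.66; limma, adjusted p = 0.915), a fold of 1.26.

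ADT4 and ADT5 had lower means in the MYBPAR lines, with overlap. ADT4 had 13.37, 12.85 and 12.98 in MYBPAR replicates 1 to 3 and 13.32, 13.48 and 13.24 in empty vector replicates 1 to 3. MYBPAR replicate 1 lay among the controls and the other MYBPAR lines below them, and the difference was -0.28 (SE 0.16; limma, adjusted p = 0.915). ADT5 had 12.75, 12.30 and 11.87 in MYBPAR replicates 1 to 3 and 12.82, 12.65 and 12.27 in empty vector replicates 1 to 3. It had the widest interval of the 33, -0.90 to 0.34, around a difference of -0.28 (SE 0.26). Without MYBPAR replicate 3, the lowest sample, the ADT5 difference was -0.056.

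ADT1 and ADT2 completed the family. ADT1 had a difference of 0.21 (SE 0.14), which was 0.081 without MYBPAR replicate 2, its highest sample at 12.56. ADT2 had 0.029 (SE 0.14), and its second feature 0.059.

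**Figure D3:**
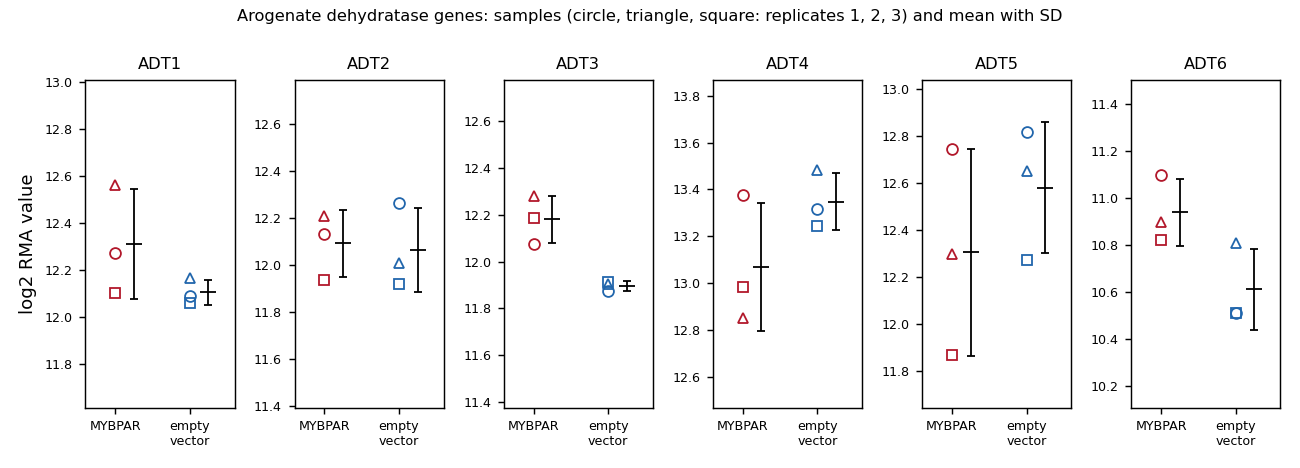
Log2 RMA values of the 6 arogenate dehydratase genes in the MYBPAR (red) and empty vector (blue) samples, with the mean and SD of each group (n = 3) in black. Each panel spans the same number of log2 units. The groups are separate for ADT3 and ADT6, and ADT5 has the widest scatter.

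Upstream of arogenate, AAT, an aminotransferase that also converts prephenate to arogenate, had nearly equal group means. It had 11.46, 11.48 and 11.61 in MYBPAR replicates 1 to 3 and 11.35, 11.53 and 11.55 in empty vector replicates 1 to 3. The groups overlapped, and the difference was 0.039 (SE 0.11; limma, adjusted p = 0.963).

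Both loci of the tyrosine branch had differences above 0. AT1G15710 had 12.39, 12.55 and 12.56 in MYBPAR replicates 1 to 3 and 12.23, 12.39 and 12.26 in empty vector replicates 1 to 3. MYBPAR replicate 1 and empty vector replicate 2 stood level, so the groups overlapped, and the difference was 0.20 (SE 0.11, 95% interval -0.055 to 0.46; limma, adjusted p = 0.915). AT5G34930 had 0.13 (SE 0.11).

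In the tryptophan branch 9 of 11 genes had differences above 0, between -0.10 and 0.22, with a median of 0.11. The median of the 11 genes relative to the control mean was -0.0058, 0.16 and 0.17 in MYBPAR replicates 1, 2 and 3 and -0.085, -0.041 and 0.077 in empty vector replicates 1, 2 and 3. MYBPAR replicate 1 thus lay among the controls and the other MYBPAR lines above them.

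The genes of anthranilate synthase, the entry enzyme of the branch, had close group means. ASA1, an alpha subunit gene whose transcript is known to respond to jasmonate, had -0.10 (SE 0.11), ASA2 0.0061 (SE 0.11) and the beta subunit gene ASB1 0.11 (SE 0.13). Their intervals together ran from -0.37 to 0.42.

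The next steps had differences above 0. TRP1, which joins anthranilate to phosphoribosyl pyrophosphate, had 0.16 (SE 0.11). The phosphoribosylanthranilate isomerase genes PAI1, PAI2 and PAI3 had 0.22 (SE 0.14), 0.22 (SE 0.16) and 0.14 (SE 0.15). The PAI genes are near-identical copies, so their features may read one another's transcripts and the 3 are not independent.

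All 3 PAI genes had their highest value in MYBPAR replicate 2. PAI2 had 12.63, 13.19 and 12.85 in MYBPAR replicates 1 to 3 and 12.59, 12.71 and 12.72 in empty vector replicates 1 to 3. Without MYBPAR replicate 2 the differences of PAI1, PAI2 and PAI3 were 0.11, 0.069 and 0.046. The second feature of PAI2 had 7.47, 7.96 and 7.62 in MYBPAR replicates 1 to 3 and 7.34, 7.08 and 7.33 in empty vector replicates 1 to 3, near the minimum between the modes. Its groups did not overlap, with a difference of 0.44 (SE 0.16; limma, unadjusted p = 0.0337, adjusted p = 0.915). The second feature of PAI3, with a mean of 9.83 in MYBPAR and 9.82 in empty vector, had 0.015 (SE 0.14). The other features of PAI1 had 0.13, 0.20 and 0.15, and for all of these the groups overlapped.

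Of the last steps, TSA1, the alpha subunit gene of tryptophan synthase, had the smallest p of the branch. Its values were 10.69, 10.63 and 10.68 in MYBPAR replicates 1 to 3 and 10.46, 10.55 and 10.54 in empty vector replicates 1 to 3. The groups did not overlap, and the difference was 0.15 (SE 0.09, 95% interval -0.074 to 0.38; limma, adjusted p = 0.915). The unnamed locus AT2G04400 of this branch had 0.097 (SE 0.11). The beta subunit genes TSB1 and TSB2, which are close copies, had 0.077 (SE 0.18) and -0.027 (SE 0.20), with the largest errors of the branch.

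TSB1 and TSB2 stood in different orders across the lines. TSB1 had 13.56, 13.50 and 13.19 in MYBPAR replicates 1 to 3 and 13.62, 13.29 and 13.10 in empty vector replicates 1 to 3. TSB2 had 11.62, 11.16 and 11.51 in MYBPAR replicates 1 to 3 and 11.13, 11.57 and 11.69 in empty vector replicates 1 to 3. Empty vector replicate 1 was the highest sample for TSB1 and the lowest for TSB2.

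Several features of a locus mostly pointed the same way. Of the 11 loci with more than 1 feature, all features had differences of the same sign in 10, the exception being SK1.

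Genes around the pathway were read from lists of suppliers and users, in 32 loci of which 0 were called higher and 0 lower. Their differences ran from -0.69 to 0.86 with a median of 0.015, and 16 were above 0. The median SD within groups was 0.23 for these 32 genes, 0.10 for the 33 synthesis genes, 0.13 for loci with mean levels in the range of the latter and 0.21 for all loci. Whether the synthesis genes are less variable than others was not tested.

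Of 5 genes that supply carbon to the pathway, 4 had differences above 0. ENO1, the plastid enolase that makes phosphoenolpyruvate, had 12.54, 12.68 and 12.81 in MYBPAR replicates 1 to 3 and 12.47, 12.47 and 12.19 in empty vector replicates 1 to 3. The groups did not overlap, and the difference was 0.30 (SE 0.13; limma, adjusted p = 0.915). The transketolase gene TKL2 had 0.22 (SE 0.11) and CUE1, the phosphoenolpyruvate translocator of the plastid, 0.13 (SE 0.10), also without overlap.

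Of 4 phenylalanine ammonia-lyase genes, which open the phenylpropanoid pathway, 1 had a difference above 0. PAL1 had 0.098 (SE 0.10), PAL2 -0.23 (SE 0.27) and PAL4 -0.11 (SE 0.17). PAL2 was lowest in MYBPAR replicate 2, at 13.21 against 13.70 to 14.23 on the other arrays. Chorismate users outside the amino acids had 0 of 3 above 0, with ICS1, the isochorismate synthase of salicylate synthesis, at -0.24 (SE 0.31), ADCS, of folate synthesis, at -0.012 (SE 0.13) and ICS2 at -0.00019 (SE 0.22).

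Among 6 genes of tyrosine use, 2 had differences above 0. TAT3, a tyrosine aminotransferase gene, had 0.86 (SE 0.34) with its mean level in the low mode, and VTE2, the homogentisate phytyltransferase of tocopherol synthesis, had 0.33 (SE 0.14). HGO, which breaks down homogentisate, had -0.36 (SE 0.17). The groups of TAT3 and VTE2 did not overlap, and for all 3 the adjusted p was 0.915 in the limma fit.

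Among 9 genes of tryptophan use and its regulators, 5 had differences above 0. PAD3, the last enzyme of camalexin synthesis, had 10.25, 10.69 and 10.73 in MYBPAR replicates 1 to 3 and 9.98, 10.13 and 9.63 in empty vector replicates 1 to 3. The groups did not overlap, and the difference was 0.64 (SE 0.19; limma, unadjusted p = 0.0142, adjusted p = 0.915). MYB51, a regulator of indole glucosinolate genes, had -0.69 (SE 0.34) without overlap, with MYBPAR replicate 3 lowest at 11.35. TAA1, of auxin synthesis, had 0.37 (SE 0.21).

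Of 5 loci listed beside the tryptophan branch, 4 had differences above 0. AT5G28237 had -0.63 (SE 0.43) in the low mode, AT4G02610 0.18 (SE 0.12) and TSBtype2, a tryptophan synthase beta type gene, 0.15 (SE 0.14).

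**Figure D4:**
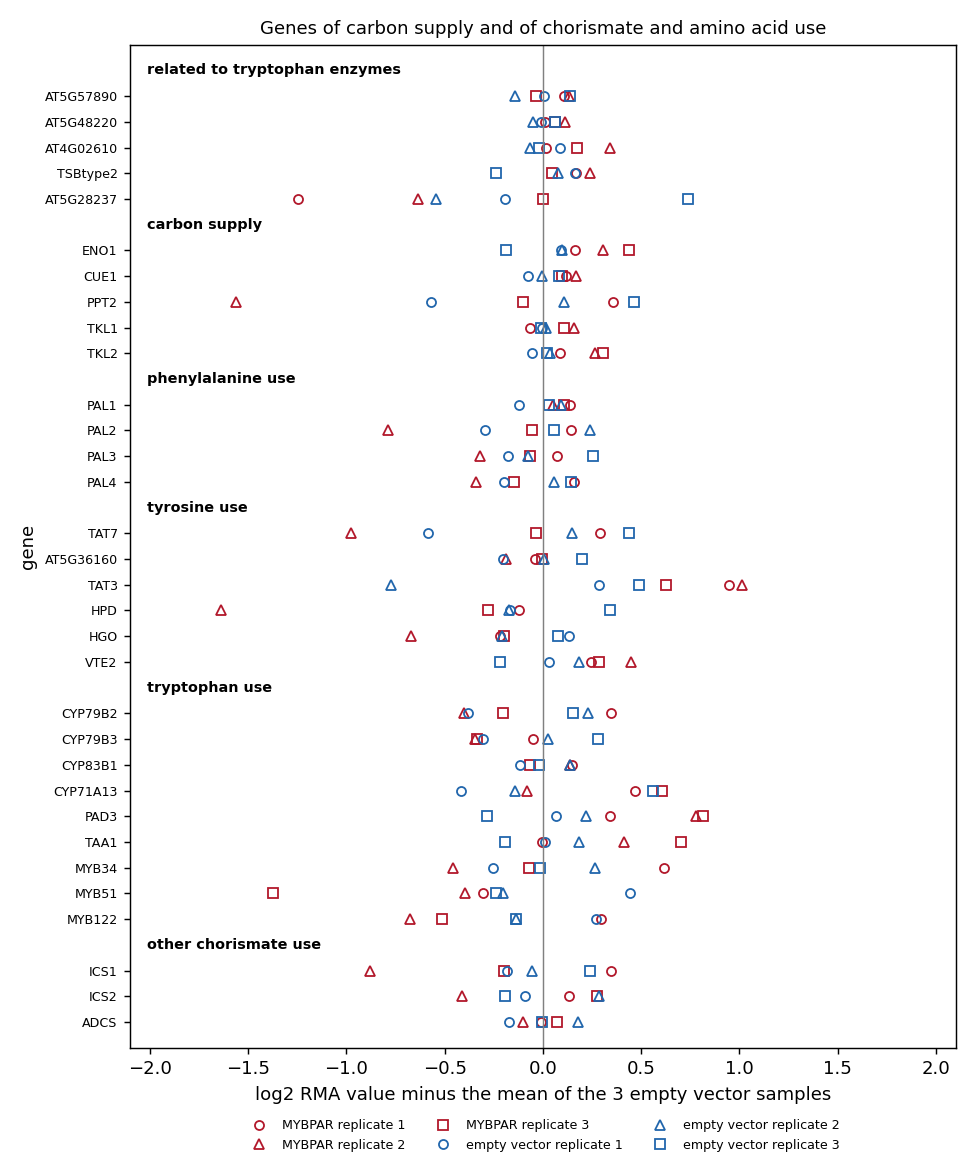
Log2 RMA value of 32 genes around the pathway in each sample, minus the mean of the 3 empty vector samples of that gene (x axis, log2 units), by list. Red points are MYBPAR and blue points empty vector samples, and circles, triangles and squares are replicates 1, 2 and 3. MYBPAR replicate 2 lies far to the left for PPT2, HPD, TAT7, PAL2 and ICS1.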

How the data were processed

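Total RNA of 6 samples, 3 per group by the labels, was labelled with Cy3 and read on single-colour NimbleGen arrays. By their array names all 6 lay on 1 slide. Per the submitters' processing notes and the file headers, the deposited intensity values are linear RMA values. The log2 values deposited as a series table were not centred and differed from log2 of the intensities by at most 1.66e-06. No coordinates are printed, since a genome build, like the RMA version and settings, is not given in the sources used here. No sequences were used here.

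Log2 values of all 37118 features were fitted with limma 3.58.1 in R 4.3.3 (lmFit, eBayes), with no filter or covariate, and p-values were adjusted over all features. Intervals are 95% intervals of this fit. The code was tested on simulated data. A locus was represented by its feature with the highest mean. Names come from the RefSeq table of TAIR10.1, and 7 of the 33 genes it does not name keep their locus identifiers.

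The members and lists were chosen with earlier results of these data known. All 33 genes were reported. Among the 33, each sample's value was given for genes whose groups did not overlap, for the smallest p of a branch and for an SD over 0.5, and up to 3 genes with the smallest p were named from each other list. DHS1, ADT4, ADT5, PAI2, TSB1, TSB2, CM1, ENO1, PAD3, PPT2, HPD and TAT7 were singled out for further values after they were seen. The number of arrays limits the precision.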

Additional observations from a re-analysis of the deposited data

How the results depend on the processing

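None of the 33 genes was called under any of the 16 alternatives, and the smallest adjusted p was 0.497, for ADT4 without MYBPAR replicate 1. Over all features 2 were called, and 0 with no moderation and 0 with the replicate number as a block. Leaving out 1 sample gave 0 to 3 calls over all features and a median difference of the 33 genes from 0.066 to 0.12. Deviations of same-numbered samples from their group means correlated at 0.30, -0.058 and 0.24 across features. MYBPAR replicate 1 correlated best with empty vector replicate 1, and MYBPAR replicates 2 and 3 with empty vector replicates 1 and 2. Deviations sum to 0 within a group, which constrains these correlations, so they cannot settle whether the numbers pair the samples. Under the block 27 of 33 differences were above 0, and under all alternatives 25 to 28, a count added after the data were seen.

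Of the 33 genes, 23 kept their sign under every alternative. Near 0, ASA2 was at -0.011 with arrays centred on their medians and SK1 at 0.014 as a mean over its features. With 1 sample left out, the range was -0.0017 to 0.14 for DHS1, -0.010 to 0.10 for DHS2, -0.014 to 0.12 for MEE32, -0.069 to 0.030 for SK1, -0.066 to 0.15 for CM1 and -0.044 to 0.13 for ADT2. It was -0.025 to 0.077 for AAT, -0.042 to 0.079 for ASA2, -0.040 to 0.22 for TSB1 and -0.19 to 0.11 for TSB2. The cause was not tested. The arrays carry no counts, and 3 samples per group limit what can be detected.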

Other observations

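Several genes that use the aromatic amino acids or chorismate, or that regulate such use, were low in MYBPAR replicate 2. This pattern was chosen after values were seen. The 22 such genes included the regulators MYB34, MYB51 and MYB122. Of the 22, 12 had the lowest of their 6 values in MYBPAR replicate 2, where 21.4% of all loci did. More than 0.5 from the control mean, in either direction, lay 8 of the 22 in MYBPAR replicate 2 and 6 in MYBPAR replicate 3. Of all loci, 19.7% and 11.3% did. In MYBPAR replicate 2 TAT3 and PAD3 lay above the control mean and the others below it. In MYBPAR replicate 3 TAT3, CYP71A13, PAD3 and TAA1 lay above it, and the regulators MYB51 and MYB122 below it. HPD, the dioxygenase that makes homogentisate from a tyrosine product, was at 12.04 in MYBPAR replicate 2 and at 13.40 to 14.03 on the other arrays. TAT7, a tyrosine aminotransferase gene, was at 11.08 against 11.47 to 12.50. PPT2, a phosphoenolpyruvate translocator gene on the supply side, was at 9.66 against 10.65 to 11.69. Of the 33 synthesis genes, 1 lay more than 0.5 from the control mean in MYBPAR replicate 2, PAI2, which was above it. The morning clock genes were low on the same array, and their part was not tested.

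AT2G45300 and the transketolase gene TKL2 neighbour each other in the gene table, and both had groups that did not overlap, with differences of 0.17 and 0.22. EMB1144 and AT1G48860 are also neighbours, with 0.12 and 0.09.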
